A study of Mus musculus with 12 samples.

Results

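The 36 genes described here are the integrin subunits and laminin chains of the mouse, taken from a table of 49315 genes by their symbols. They comprise 8 leukocyte integrins, 2 platelet integrins, 2 epithelial integrins, 14 matrix-binding integrins and 10 laminin chains, and all 36 had enough counts to be tested. RNA of white adipose tissue, given in the methods as epididymal fat (eWAT), was sequenced from 12 mice, 1 library per mouse and 3 mice in each of 4 groups. The groups were miR-181a2b2flox/flox (flox) and miR-181a2b2-/- (KO) mice, each injected weekly with vehicle or with methotrexate (MTX, 1 mg/kg), an antifolate used against inflammation. All 12 mice were fed a high-fat diet (HFD, 60% fat) for 12 weeks. The KO is systemic and the flox controls carry the floxed allele without a Cre driver, so a change in KO fat cannot be assigned to a cell type by the design. The question asked of these samples was how loss of the miR-181a2b2 locus and MTX change gene expression in obese fat.

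Integrins are adhesion receptors in the cell membrane in which an α chain pairs with a β chain. The pairing sets the ligand: the β2 chain (Itgb2) pairs on leukocytes with αL (Itgal), αM (Itgam), αX (Itgax) and αD (Itgad), which bind ICAMs, complement fragments and fibrinogen, whereas β1 (Itgb1) pairs with many α chains that bind collagens, fibronectin or laminins. Laminins are cross-shaped heterotrimers of an α, a β and a γ chain that form the sheet of the basement membrane, the thin matrix that surrounds each adipocyte and each capillary. In obese fat, leukocytes that carry β2 and β1 integrins enter from the vessels, and the matrix around adipocytes is rebuilt.

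The deleted locus encodes miR-181a and miR-181b, which share the seed by which a microRNA recognises its targets. The mature sequences are shown because they are what the KO mice lack at this locus, with the seed (bases 2 to 8) in capitals, from RefSeq on GRCm38.p6.
miR-181a-5p (Mir181a-2, chr2:38852741-38852763, + strand): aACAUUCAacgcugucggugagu
miR-181b-5p (Mir181b-2, chr2:38853845-38853868, + strand): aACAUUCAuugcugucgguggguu
RefSeq lists the same mature sequences also on chromosome 1 (Mir181a-1 and Mir181b-1), outside the deleted locus. The precursors at the deleted locus were at 0 throughout, apart from flox MTX replicate 4 with 2 counts at Mir181a-2, so the deletion could not be checked in these data. The 7 letters complementary to the seed, TGAATGT, were searched on the transcript strand of the longest annotated 3′ UTR of each gene (GENCODE M21). They occurred in 7 of the 36 members (19.4%) and in 17.4% of 15376 tested genes with a 3′ UTR. The members were Itga1 and Itgb8, with 2 matches each, and Itga2, Itga3, Itga4, Itgam and Lamc1, with 1 each. A match of letters does not show that a gene is a target.

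The upstream sequences of Itgam and Itgax are shown because both genes, which lie near each other on chromosome 7, were far higher in KO than in flox fat under vehicle, and that of Itga5 because it had the lowest adjusted p of all members in that comparison. Each holds the 250 bases before the RefSeq transcription start, 5′ to 3′ on the strand of the gene, on GRCm38.p6. Capitals mark GAGGAA, a purine-rich core bound by PU.1 and other ETS factors, and its reverse complement TTCCTC.
Itgam (chr7:128062390-128062639, + strand): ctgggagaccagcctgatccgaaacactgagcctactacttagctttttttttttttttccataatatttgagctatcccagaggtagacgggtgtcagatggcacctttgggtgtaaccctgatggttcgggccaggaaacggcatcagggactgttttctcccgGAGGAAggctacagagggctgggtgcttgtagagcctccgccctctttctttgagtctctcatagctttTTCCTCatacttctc
Itgax (chr7:128129300-128129549, + strand): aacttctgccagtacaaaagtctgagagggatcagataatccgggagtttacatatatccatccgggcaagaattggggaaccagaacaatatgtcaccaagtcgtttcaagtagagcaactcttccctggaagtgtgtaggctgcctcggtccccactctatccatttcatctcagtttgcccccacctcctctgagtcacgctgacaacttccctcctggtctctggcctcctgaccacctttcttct
Itga5 (chr15:103366792-103367041, - strand): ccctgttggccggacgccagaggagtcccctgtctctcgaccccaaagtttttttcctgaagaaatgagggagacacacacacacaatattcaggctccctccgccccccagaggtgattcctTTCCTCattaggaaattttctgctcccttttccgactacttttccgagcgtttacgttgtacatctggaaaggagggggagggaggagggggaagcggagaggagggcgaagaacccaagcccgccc
The letters occurred on either strand in 23.3% of the 32851 promoters of the RefSeq table. The search among members covered 26 promoters of 23 members, and 13 of these promoters (50%) held the letters. Lama3 was left out of the search among members, whereas the 32851 are the promoters of the whole RefSeq table. These shares are therefore not on the same basis. Of the 4 leukocyte integrins with a promoter in the table (Itga4, Itgam, Itgax and Itgb7), Itgam alone held them, 84 bases before the start on the forward strand and 15 bases before it on the reverse strand. In Itga5 they lay 127 bases before the start on the reverse strand.

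Depth was 19495310 to 23976469 counted reads per library, and the 36 members took 0.218% to 0.398% of them. Values of members below are counts scaled to a common library size with TMM factors (CPM), and sums of markers are CPM without these factors. A library at 0 may hold as many as 3 counts (counting error only). Before TMM factors this is 0.125 to 0.154 CPM depending on the library. The 8 adipocyte markers checked, among them Adipoq and Plin1, had more than 3 counts in every library and summed to 10732 to 25717 CPM in flox vehicle, 7450 to 14600 in KO vehicle, 14943 to 22623 in flox MTX and 4735 to 11855 in KO MTX mice. Markers of other tissue were present too. The 14 epididymis markers reached 12422 CPM in flox vehicle replicate 3, 4535 in replicate 1 and 1474 in replicate 4. Flox MTX replicate 1 followed with 428 CPM, and the other 8 libraries had 1.81 to 19.3 CPM. In flox vehicle mice most of the sum was Crisp1, with 86439, 233923 and 25221 counts in replicates 1, 3 and 4. Gpx5, Lcn8, Lcn9, Rnase10 and Cst11 had their highest count outside the flox vehicle group, and each other epididymis marker in flox vehicle replicate 3. Gpx5 had 0, 87 and 0 counts in flox vehicle mice, 94 in KO vehicle replicate 1 and 81 in flox MTX replicate 4. The 7 epithelium markers (Epcam, Krt8, Krt18 and others) ranked the flox vehicle mice as the epididymis sum did. They summed to 535, 1241 and 273 CPM there and 5.84 to 62.5 CPM elsewhere. The 6 testis germ cell markers were at 148 to 505 CPM in flox vehicle mice, highest in replicate 1, and at 0.231 to 8.66 CPM elsewhere. The 10 macrophage markers summed to 575 to 1084 CPM in flox vehicle, 3616 to 5813 in KO vehicle, 787 to 4848 in flox MTX and 5039 to 8391 in KO MTX mice. In tissue RNA, a change in the number of cells of a type and a change in RNA per cell cannot be told apart.

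KO fat of vehicle-treated mice held more RNA of the leukocyte integrins Itgb2, Itgam and Itgax, of the fibronectin receptor chain Itga5 and of the laminin chain Lama2 than flox fat, and less of Lama1. Genes count as called here when they passed 0.1 in the p of edgeR's quasi-likelihood test, adjusted by Benjamini-Hochberg, and changed 1.5-fold or more. By this rule 14 of the 36 members differed (10 higher and 4 lower in KO), against 31.7% of all 18702 genes tested (13.9% higher and 17.8% lower). An unadjusted p below 0.05 was found for 18 members, against 41% of all genes. The members' median log2 fold change was 0.27, and that of all genes -0.06. The mice of the 2 groups did not overlap for 13 members with higher and 5 with lower values in KO, against 22.8% and 25.3% of all genes. Of the integrins, 9 were called higher and 3 lower. Of the laminin chains, 1 was higher and 1 lower. Without flox vehicle replicates 1 and 3, the libraries with the most epididymis RNA, 3 members were called (Itga5 higher, Itgb6 and Lama1 lower), with 1 flox vehicle library left. This alternative was chosen after the data were seen, and the share of all genes called in it is not given here. Itgb6 is counted among the calls in this report. It had at most 3 counts in every library outside the flox vehicle group, so its calls are given no weight.

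In flox mice, 6 of the 8 leukocyte integrins rose with MTX (Itga4, Itgal, Itgam, Itgax, Itgb2 and Itgb7), while the epithelial integrin Itgb4, the platelet integrin Itga2b and 3 of the 10 laminin chains (Lama1, Lama3 and Lama5) fell. The calls below count Itgb6 too, which is given no weight. Called were 16 members, 10 higher and 6 lower after MTX, against 24.2% of all genes (8.09% higher and 16.1% lower). The members' median was 0.28 and that of all genes 0.05. An unadjusted p below 0.05 was found for 18 members, against 34.2% of all genes, and the groups did not overlap for 6 members higher and 5 lower, against 10.9% and 17.5%. This count depended on single libraries and on the model, and the share of all genes called in each alternative is not given here. Leaving out flox vehicle replicate 3 gave 4 (Itgb3, Itgb6, Lama1 and Lama3) and leaving out replicate 1 gave 9. The count was 10 when flox MTX replicate 2 was left out, 8 with the replicate number as a block and 3 when the 6 libraries were fitted alone. Without flox MTX replicate 2, the increases of Itga4, Itgal, Itgam, Itgax, Itgb2, Itga5 and Itga11 no longer passed. Without flox vehicle replicates 1 and 3 the count was 1 (Itgb6).

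Under MTX, no member was called between KO and flox mice, and no gene of the 18702 was (0%). At an unadjusted p below 0.05 there were 11 members, and 24.5% of all genes. The groups did not overlap for 8 members higher and 4 lower in KO, against 14.7% and 12.1% of all genes. The smallest adjusted p in this comparison was 0.104, and Itga5, Lama2, Itgae and Lama1 had it. DESeq2 called 8 members, and leaving out flox MTX replicate 2 gave 13 (10 higher and 3 lower in KO). The shares of all genes called in these and the other alternatives below are not given here. Within KO mice, MTX changed no member (0% of all genes) in edgeR, with 4 members and 7.97% of all genes at an unadjusted p below 0.05, and DESeq2 called Itga8 alone. The groups did not overlap for 7 members higher and 4 lower after MTX, against 11.1% and 9.55% of all genes. The interaction, which asks whether the MTX effect differed between genotypes, gave 0 members in edgeR and 0.989% of all genes (0.898% higher and 0.0909% lower). Itga2b and Lama3 had an unadjusted p below 0.05 in it, against 15% of all genes, and DESeq2 called Itgb6 and Lama3. The comparisons that share a group of mice are not independent, since the flox vehicle mice enter both the genotype comparison under vehicle and the MTX comparison in flox mice.

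**Figure D1:**
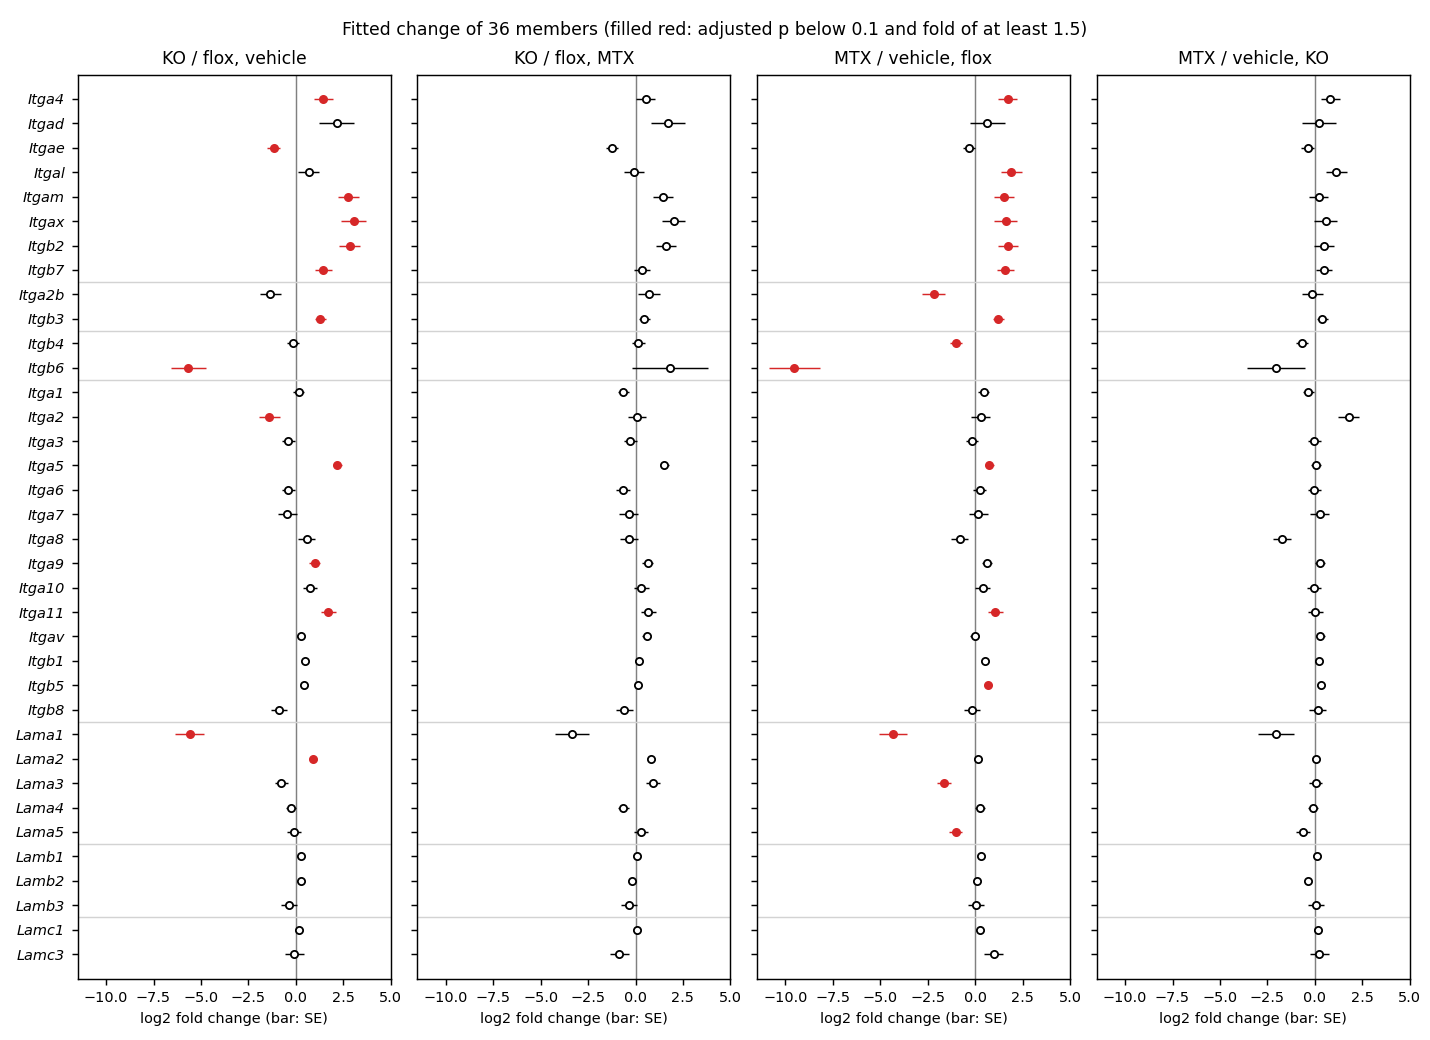
Log2 fold changes of the 36 members (points, with SE as bars) in the 4 comparisons, ordered by role and separated by grey lines. Red filled points passed the call: 14 members in KO against flox under vehicle, 16 in MTX against vehicle in flox mice, and none in the other 2 comparisons.

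Values below are in replicate order, which is 1, 3 and 4 for flox vehicle, 1, 2 and 3 for KO vehicle, 1, 2 and 4 for flox MTX and 2, 3 and 4 for KO MTX, and differences between groups are log2 fold changes with their SE. Among the leukocyte integrins, Itgb2, the common β2 chain, was the most abundant per kilobase of exon. It stood at 38.5, 27.3 and 52.7 CPM in the flox vehicle mice, 210.2, 226 and 406 in the KO vehicle mice, 117, 234 and 39.0 in the flox MTX mice and 349, 531 and 302 in the KO MTX mice. All KO mice lay above all flox mice of the same treatment, and flox MTX replicate 4 lay among the flox vehicle mice. The log2 difference between KO and flox was 2.83 ± 0.56 (SE, adjusted p = 0.00488) under vehicle and 1.60 ± 0.53 (SE, adjusted p = 0.124) under MTX. In flox mice MTX raised Itgb2 by 1.72 ± 0.54 (SE, adjusted p = 0.0467).

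Itgam (αM, the CD11b chain of complement receptor 3) was at 12.2, 10.9 and 24.3 CPM in the flox vehicle mice, 73.8, 81.0 and 167 in the KO vehicle mice, 43.8, 75.5 and 15.9 in the flox MTX mice and 109, 162 and 97.2 in the KO MTX mice. KO vehicle mice were all above flox vehicle mice, by 2.77 ± 0.55 (SE, adjusted p = 0.00494) on the log2 scale. Most of the annotated exon sequence of Itgam (3450 of 5024 bases) is shared with a second gene model on the same strand, Gm49368, which had 0 to 28 counts, and how reads lying in both models were counted is not stated. Itgax (αX, the CD11c chain of dendritic cells and of fat macrophages) was at 24.3, 21.0 and 29.7 CPM in the flox vehicle mice, 145, 172 and 302 in the KO vehicle mice, 77.8, 136 and 13.7 in the flox MTX mice and 242, 431 and 242 in the KO MTX mice. It had the largest increase of the 36 members in KO fat under vehicle, 3.05 ± 0.64 (SE, adjusted p = 0.00614), while under MTX the difference was 2.01 ± 0.62 (SE, adjusted p = 0.114) without overlap of the groups. MTX raised both in flox mice, Itgam by 1.52 ± 0.53 (SE, adjusted p = 0.0674) and Itgax by 1.60 ± 0.61 (SE, adjusted p = 0.09), although flox MTX replicate 4 was no higher than flox vehicle mice for Itgax. The call of Itgax was lost in 13 of 19 alternatives and that of Itgam in 8. Both increases were lost when library size alone set the scale, a choice that took the overall median log2 fold change down to -0.15.

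Itgad (αD) was at 12.0, 7.63 and 4.57 CPM in the flox vehicle mice, 28.8, 44.8 and 33.5 in the KO vehicle mice, 32.5, 4.73 and 0.438 in the flox MTX mice and 41.8, 32.2 and 50.5 in the KO MTX mice. The flox MTX mice differed widely from each other, and KO mice were above flox mice under vehicle without overlap, at 2.14 ± 0.93 (SE, adjusted p = 0.105), just outside the call. Itgad shares 388 exon bases with 4931431B13Rik and 70 with Cox6a2, both on the opposite strand. Whether the counting used the strand is not stated, and Cox6a2 itself had 17, 15 and 8 counts in flox vehicle, 67, 92 and 113 in KO vehicle, 70, 13 and 3 in flox MTX and 131, 80 and 91 in KO MTX mice, the order of Itgad in the flox MTX mice. Reads in the shared stretches can therefore not be told apart, while most of the 4510 exon bases of Itgad are its own.

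Itgal, Itga4 and Itgb7 belong to the integrins by which lymphocytes and monocytes leave the blood, αLβ2 (LFA-1), α4β1 (VLA-4) and α4β7. Itgal was at 6.16, 4.48 and 3.97 CPM in the flox vehicle mice, 6.10, 8.09 and 9.28 in the KO vehicle mice, 6.0, 36.5 and 12.3 in the flox MTX mice and 10.6, 25.4 and 15.5 in the KO MTX mice. Flox MTX replicate 2 and KO MTX replicate 3 were the highest of their groups, and these were also the libraries with the highest sums of T cell markers (47.2 and 44.6 CPM, against 8.82 to 19.7 elsewhere) and of B cell markers (247 and 214 CPM, against 11.1 to 74.8). Itgal did not pass the test between genotypes under vehicle, 0.68 ± 0.55 (SE, adjusted p = 0.38), and rose with MTX in flox mice by 1.91 ± 0.56 (SE, adjusted p = 0.0372). The part of the lymphocyte markers in this rise was not tested.

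Itga4 stood at 7.94, 5.39 and 15.4 CPM in the flox vehicle mice, 19.5, 25.9 and 32.5 in the KO vehicle mice, 18.5, 59.0 and 16.3 in the flox MTX mice and 38.8, 60.1 and 36.9 in the KO MTX mice, with the same libraries on top. Its difference between KO and flox was 1.44 ± 0.51 (SE, adjusted p = 0.0557) under vehicle, and the call was lost without flox vehicle replicate 1 or 3, without KO vehicle replicate 2 or 3 and with the replicate block. In flox mice MTX raised it by 1.71 ± 0.51 (SE, adjusted p = 0.0404) and Itgb7 by 1.59 ± 0.44 (SE, adjusted p = 0.0299). The values of Itgb7 were 7.33, 6.53 and 9.65 CPM in the flox vehicle mice, 19.9, 18.5 and 26.1 in the KO vehicle mice, 11.7, 42.2 and 16.9 in the flox MTX mice and 21.2, 43.8 and 24.6 in the KO MTX mice. Here KO vehicle mice were all above flox vehicle mice, by 1.46 ± 0.44 (SE, adjusted p = 0.0289). Of Itga4, 1124 of 13978 exon bases are shared with Cerkl on the opposite strand, which had 8 to 29 counts.

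Itgae (αE, which holds lymphocytes and some dendritic cells to E-cadherin on epithelium) moved the other way. It was at 4.17, 5.98 and 4.11 CPM in the flox vehicle mice, 1.96, 2.37 and 1.97 in the KO vehicle mice, 2.69, 3.50 and 5.19 in the flox MTX mice and 1.13, 1.69 and 2.01 in the KO MTX mice, so that every KO mouse lay below every flox mouse of its treatment. The KO to flox difference was -1.17 ± 0.32 (SE, adjusted p = 0.0193) under vehicle and -1.23 ± 0.33 (SE, adjusted p = 0.104) under MTX. Cdh1, the E-cadherin gene, was itself lower in KO under vehicle, at a log2 difference of -6.13 ± 1.31 (SE, adjusted p = 0.00629). All 7 epithelium markers were also called lower in this comparison (median log2 fold change -4.56), against 17.8% of all genes. They summed to 273 to 1241 CPM in flox vehicle and 11.4 to 54.5 CPM in KO vehicle mice. The part of that tissue in the difference of Cdh1 was not tested.

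**Figure D2:**
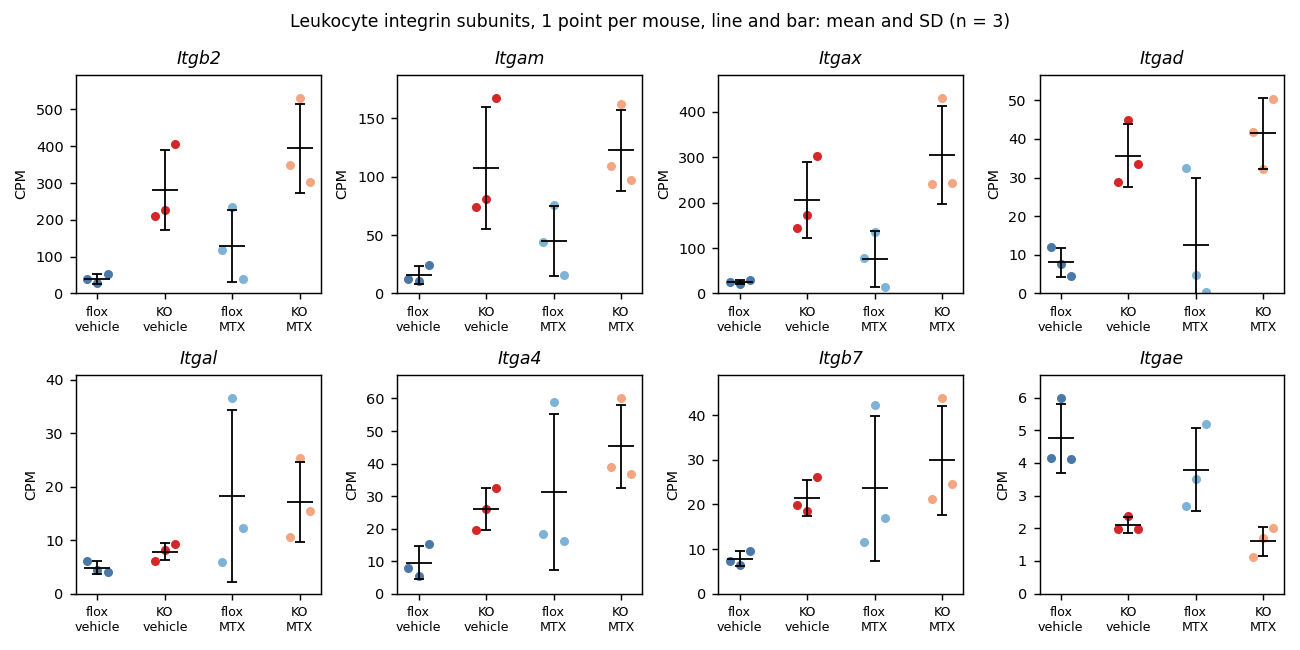
CPM of the 8 leukocyte integrins in each mouse (points), with the group mean and SD (bars, n = 3; the lower bar of Itgad in flox MTX mice is cut at 0). KO mice lie above flox mice of the same treatment for Itgb2, Itgam and Itgax and below them for Itgae, while flox MTX replicate 2 tops its group for Itgal, Itga4 and Itgb7.

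The β2 integrins were next set against the macrophage markers of the same library. Itgb2 varied 19.5-fold in CPM over the 12 libraries but only 1.77-fold in counts per 100 macrophage marker counts, which ran from 4.97 to 5.33 in flox vehicle, 5.87 to 7.18 in KO vehicle, 4.06 to 4.90 in flox MTX and 5.76 to 6.74 in KO MTX mice. Itgam varied 15.4-fold in CPM and 1.87-fold per 100 marker counts, whereas Itgad varied 115-fold and 36.5-fold and Itgal 9.20-fold and 7.82-fold. Itgax varied 31.5-fold and 3.83-fold, with 2.80 to 3.94 per 100 marker counts in flox vehicle, 4.04 to 5.34 in KO vehicle, 1.43 to 2.91 in flox MTX and 3.99 to 5.46 in KO MTX mice. For Itgax, as for Itgb2, the KO mice stayed above the flox mice of the same treatment on this scale too. Itgal, Itgb7, Itga4 and Itgb3 went the other way between the vehicle groups, without overlap, although the last 3 were higher in KO in CPM. Itgal was 0.374 to 0.853 per 100 marker counts in flox vehicle and 0.164 to 0.213 in KO vehicle mice, and Itgb7 0.910 to 1.23 and 0.462 to 0.556. Itga4 was 1.01 to 1.45 in flox vehicle and 0.546 to 0.681 in KO vehicle mice, and the platelet chain Itgb3 0.440 to 0.799 and 0.209 to 0.259. No test was run on these ratios.

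**Figure D3:**
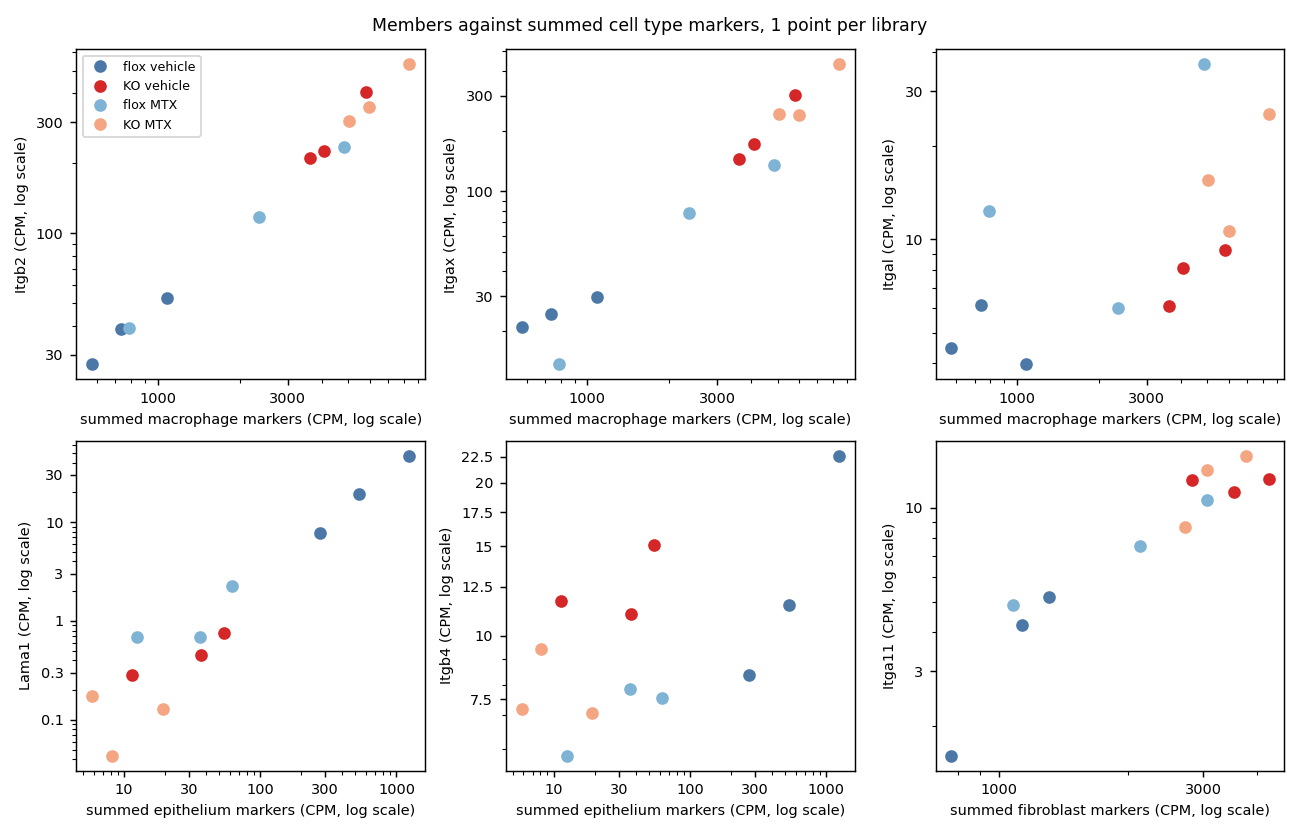
CPM of 6 members (vertical, log scale) against the summed CPM of a marker list in the same library (horizontal, log scale, without TMM factors), 1 point per library and 1 colour per group. Itgb2 and Itgax rise with the macrophage sum and Lama1 with the epithelium sum across the groups, Itga11 rises with the fibroblast sum, and Itgal and Itgb4 are spread widely at a given marker sum.

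The platelet integrins did not move as a pair. Itga2b and Itgb3 encode αIIb and β3, which together form the fibrinogen receptor of platelets, and β3 also pairs with αv on vessels, osteoclasts and macrophages. Itgb3 stood at 3.43, 4.25 and 4.66 CPM in the flox vehicle mice, 9.27, 9.19 and 11.8 in the KO vehicle mice, 7.09, 13.9 and 7.88 in the flox MTX mice and 11.7, 17.2 and 10.9 in the KO MTX mice, higher in KO than in flox mice under vehicle by 1.29 ± 0.29 (SE, adjusted p = 0.00764) and raised by MTX in flox mice by 1.22 ± 0.29 (SE, adjusted p = 0.0165). In both comparisons the groups did not overlap. Itga2b was at 14.1, 32.4 and 4.99 CPM in the flox vehicle mice, 5.14, 7.50 and 7.64 in the KO vehicle mice, 4.06, 5.0 and 2.13 in the flox MTX mice and 4.48, 9.27 and 4.72 in the KO MTX mice. Flox vehicle replicates 1 and 3 were the highest of the 12 libraries, and the fall with MTX in flox mice was -2.19 ± 0.59 (SE, adjusted p = 0.0274). Without flox vehicle replicate 3 this fall no longer passed the test. Of the 6 platelet and megakaryocyte markers, 4 were tested, and 2 were called higher and 0 lower in KO than in flox mice under vehicle. Their sum was 20.3 to 26.2 CPM in flox vehicle, 68.1 to 96.1 in KO vehicle, 14.9 to 65.2 in flox MTX and 64.0 to 93.2 in KO MTX mice, most of it Pf4. Gp9 alone was highest in flox vehicle replicates 1 and 3, with 42, 141 and 9 counts in the flox vehicle mice against 0 to 9 elsewhere.

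The epithelial integrins are β4 (Itgb4), which pairs with α6 in hemidesmosomes and is also found on other cells, and β6 (Itgb6), which pairs with αv on epithelium and activates TGF-β. Itgb6 stood at 2.91, 8.02 and 1.71 CPM in the flox vehicle mice and at 0 to 0.151 CPM in the other 9 libraries. Its counts summed to 308 in flox vehicle mice and 5 in KO vehicle mice, a ratio of 56.9 with a 95% counting interval of 24.1 to 176. This interval pools the reads of each group and leaves out the spread between mice. All 3 flox MTX libraries were at 0, so that Itgb6 was at least 27.2-fold lower than in flox vehicle mice, taking 3 counts per library as the limit. Itgb6 had at most 3 counts in every library outside the flox vehicle group and passed the filter on low counts through that group alone. It had to differ there, so its calls are counted above but its test is given no weight.

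Itgb4 was at 11.5, 22.6 and 8.36 CPM in the flox vehicle mice, 11, 15.1 and 11.7 in the KO vehicle mice, 7.56, 7.86 and 5.81 in the flox MTX mice and 9.44, 7.06 and 7.17 in the KO MTX mice. It was highest in flox vehicle replicate 3, did not pass the test between genotypes under vehicle, -0.17 ± 0.32 (SE, adjusted p = 0.73), and fell with MTX in flox mice, at a log2 difference of -1.0 ± 0.33 (SE, adjusted p = 0.0545), a call lost without flox vehicle replicate 3 or flox MTX replicate 4. In all, 8 of the 36 members (Itgae, Itga2b, Itgb4, Itgb6, Itga3, Lama1, Lama3 and Lama5) ranked the flox vehicle mice as the sums of the epididymis and epithelium markers did, replicate 3 above 1 above 4. That is 22.2% of the members, against 28% of all genes tested. The part of that tissue in the differences of these members was not tested.

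Of the 14 matrix-binding integrins, 3 were higher and 1 lower in KO than in flox mice under vehicle, and 3 rose with MTX in flox mice. Over all genes these shares were 13.9% higher and 17.8% lower between genotypes, together near the share of these members, and 8.09% higher with MTX. The fibronectin receptor chain Itga5 (α5, partner of β1) had the lowest adjusted p of all members between KO and flox mice under vehicle. It stood at 29.1, 30.3 and 38.4 CPM in the flox vehicle mice, 113, 134 and 201 in the KO vehicle mice, 58.5, 65.6 and 39.2 in the flox MTX mice and 161, 177 and 129 in the KO MTX mice. Each KO mouse had more Itga5 than any flox mouse, whichever the treatment, and the differences were 2.19 ± 0.26 (SE, adjusted p = 0.00271) under vehicle and 1.51 ± 0.25 (SE, adjusted p = 0.104) under MTX. The call under vehicle held in every alternative, also without flox vehicle replicates 1 and 3. MTX raised it in flox mice by 0.74 ± 0.25 (SE, adjusted p = 0.0587) and gave 0.06 ± 0.24 (SE, adjusted p = 0.974) in KO mice. Of 6 fibroblast markers, 5 were called higher and 1 lower in KO than in flox mice under vehicle, against 13.9% and 17.8% of all genes. Set against the sum of these markers, Itga5 had 2.62 to 4.25 counts per 100 marker counts in flox vehicle, 4.02 to 4.85 in KO vehicle, 2.18 to 2.98 in flox MTX and 4.82 to 5.20 in KO MTX mice. Per 100 macrophage marker counts, however, it was 3.62 to 5.71 in flox vehicle and 3.15 to 3.55 in KO vehicle mice.

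Itga11 (α11, a collagen receptor of fibroblasts) was at 4.21, 1.61 and 5.17 CPM in the flox vehicle mice, 12.2, 11.2 and 12.3 in the KO vehicle mice, 7.51, 10.5 and 4.88 in the flox MTX mice and 13.2, 14.6 and 8.70 in the KO MTX mice. KO vehicle mice were within a narrow range above all flox vehicle mice, by 1.70 ± 0.40 (SE, adjusted p = 0.00979), and MTX raised it in flox mice by 1.07 ± 0.40 (SE, adjusted p = 0.0849). The fibroblast markers summed to 773 to 1308 CPM in flox vehicle, 2826 to 4258 in KO vehicle, 1078 to 3057 in flox MTX and 2714 to 3776 in KO MTX mice, and per 100 of their counts Itga11 was 0.226 to 0.404, 0.298 to 0.438, 0.311 to 0.371 and 0.324 to 0.428 in the same order. On that scale the 4 groups overlapped. Itga9 (α9, a receptor for tenascin-C and VCAM-1) stood at 8.94, 9.95 and 15.0 CPM in the flox vehicle mice, 22.3, 22.7 and 22.1 in the KO vehicle mice, 18.8, 22.7 and 10.1 in the flox MTX mice and 25.4, 29.7 and 25.3 in the KO MTX mice. It was higher in KO than in flox mice under vehicle by 0.99 ± 0.27 (SE, adjusted p = 0.0196), with KO vehicle mice nearly equal to each other. Per 100 fibroblast marker counts it was lower in KO vehicle mice, 0.533 to 0.798 against 0.807 to 1.39 in flox vehicle mice.

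Itga2 (α2, the collagen receptor of platelets and epithelium) was near the limit of detection, at 0.304, 0.236 and 0.462 CPM in the flox vehicle mice, 0.101, 0.169 and 0.0937 in the KO vehicle mice, 0.425, 0.364 and 0.438 in the flox MTX mice and 0.565, 0.563 and 0.175 in the KO MTX mice, and lower in KO than in flox mice under vehicle, at a log2 difference of -1.39 ± 0.56 (SE, adjusted p = 0.0848). This call was lost in 13 of the 18 alternatives in which Itga2 was tested. Itgb5 (β5, partner of αv and receptor for vitronectin) was abundant, at 149, 140.4 and 227 CPM in the flox vehicle mice, 245, 208 and 255 in the KO vehicle mice, 253, 264 and 308 in the flox MTX mice and 306, 311 and 276 in the KO MTX mice. MTX raised it in flox mice by 0.67 ± 0.19 (SE, adjusted p = 0.0328) without overlap, and the KO to flox difference under vehicle, 0.45 ± 0.19 (SE, adjusted p = 0.0969), was under 1.5-fold. Itgb1, the most abundant member per kilobase, was at 294, 353 and 465 CPM in the flox vehicle mice, 498, 499 and 557 in the KO vehicle mice, 533, 493 and 572 in the flox MTX mice and 593, 604 and 596 in the KO MTX mice. Under both treatments every KO mouse was above every flox mouse, but the differences were small, 0.48 ± 0.18 (SE, adjusted p = 0.0614) under vehicle and 0.17 ± 0.18 (SE, adjusted p = 0.587) under MTX, and the fold was under the limit of 1.5.

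The other matrix-binding integrins were not called in any comparison. Itga6 and Itga7, whose α chains bind laminin, ranged over 94.5 to 311 and 143 to 665 CPM in the 12 libraries, with KO to flox log2 differences under vehicle of -0.39 ± 0.35 and -0.44 ± 0.49 (SE). Itgav, the αv chain of the vitronectin and TGF-β-activating receptors, ranged over 42.7 to 91.1 CPM. Itga1 and Itga10, which bind collagen, ranged over 11.8 to 31.0 and 1.37 to 4.42 CPM and Itga3, a laminin receptor chain, over 13.0 to 30.4 CPM. Itga8, the receptor for nephronectin, and Itgb8, which activates TGF-β with αv, were scarce (0.520 to 2.57 and 0.739 to 2.73 CPM). Within KO mice Itga8 was lower after MTX without overlap, -1.73 ± 0.46 (SE, adjusted p = 0.346), and Itga2 higher, 1.78 ± 0.55 (SE, adjusted p = 0.386).

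**Figure D4:**
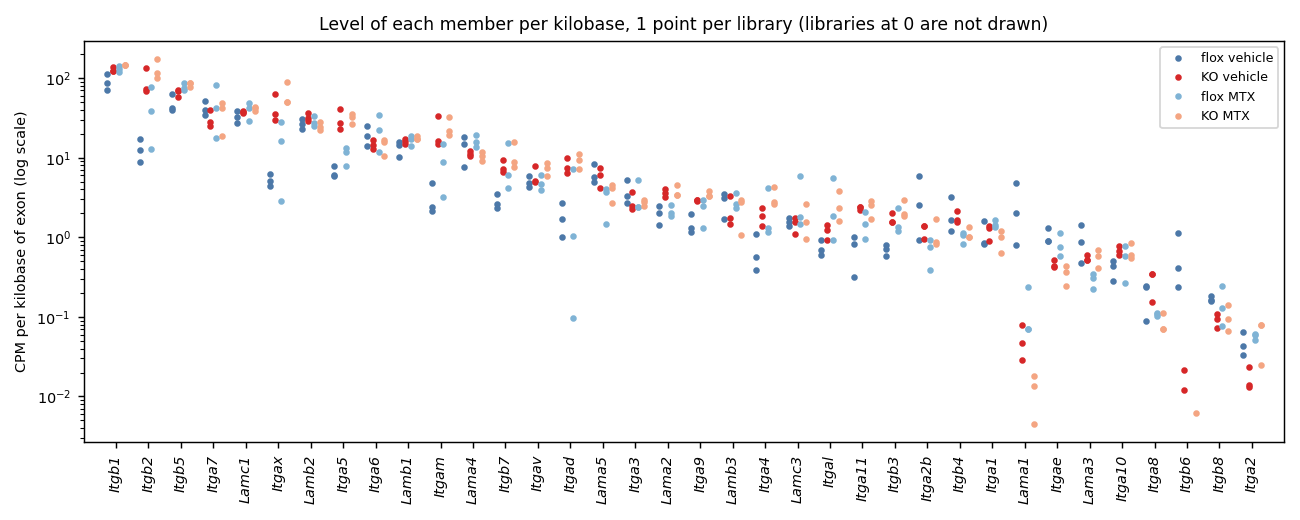
Level of each member as CPM per kilobase of exon (vertical, log scale), ordered by the mean of the 4 groups, with 1 point per library and libraries at 0 left out. Itgb1 is the highest and Itga2 the lowest member, and Itgb2, Itgax, Itgam, Lama1 and Itgb6 differ widely between groups.

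Per kilobase, the laminin receptors and laminins of the adipocyte and capillary basement membrane were among the most abundant members. In flox vehicle mice Itgb1 was at 90.8 ± 21.3 CPM per kilobase (SD, n = 3), Itgb5 at 48.5 ± 13.5, Itga7 at 42.0 ± 9.12, Lamc1 at 32.9 ± 5.74, Lamb2 at 26.8 ± 4.01, Itga6 at 19.2 ± 5.36, Lama4 at 13.6 ± 5.44 and Lamb1 at 13.4 ± 2.86. The ranges of mean ± SD did not meet for Itgb1 and Itgb5, and they overlapped for each later pair of neighbours in this order. Itgb2 was at 12.9 ± 4.17 CPM per kilobase in flox vehicle mice and at 92.0 ± 35.6 in KO vehicle mice, where it ranked after Itgb1 (127 ± 8.24).

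Of the 10 laminin chains, 1 was called higher (Lama2) and 1 lower (Lama1) in KO than in flox mice under vehicle, against 13.9% and 17.8% of all genes. With MTX in flox mice 0 were higher and 3 lower (Lama1, Lama3 and Lama5), against 8.09% and 16.1%. Lama4 and the 5 β and γ chains were called in no comparison. Lama1, the α chain of laminin-111, which is typical of the embryo and of epithelial basement membranes, stood at 19.3, 47.0 and 7.80 CPM in the flox vehicle mice, 0.453, 0.762 and 0.281 in the KO vehicle mice, 2.27, 0.682 and 0.688 in the flox MTX mice and 0.0435, 0.130 and 0.175 in the KO MTX mice. The flox vehicle mice were above all others, with replicate 3 highest and replicate 4 lowest among them. Lama1 was lower in KO than in flox mice under vehicle, at a log2 difference of -5.60 ± 0.78 (SE, adjusted p = 0.00276), lower under MTX, at a log2 difference of -3.34 ± 0.88 (SE, adjusted p = 0.104), and fell with MTX in flox mice, at a log2 difference of -4.33 ± 0.72 (SE, adjusted p = 0.00514). Under MTX it had 74 counts in the flox and 8 in the KO libraries, a ratio of 10.8 with a 95% counting interval of 5.19 to 25.9. This interval pools the reads of each group and leaves out the spread between mice. Flox MTX replicate 1 alone held 48 of the 74 counts. Per 100 counts of the epithelium markers Lama1 was 2.92 to 4.09 in flox vehicle, 1.24 to 2.54 in KO vehicle, 1.90 to 4.49 in flox MTX and 0.529 to 3.03 in KO MTX mice, on which scale the flox groups overlapped.

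Lama3 and Lama5, α chains of epithelial and vascular laminins, also fell with MTX in flox mice, at a log2 difference of -1.66 ± 0.37 (SE, adjusted p = 0.0128) and -1.04 ± 0.36 (SE, adjusted p = 0.0691). Lama3 was at 9.46, 15.4 and 5.17 CPM in the flox vehicle mice, 5.59, 5.63 and 6.47 in the KO vehicle mice, 3.31, 3.73 and 2.44 in the flox MTX mice and 4.48, 7.41 and 6.29 in the KO MTX mice. Its values in the 2 vehicle groups overlapped, and the difference of its MTX effect between genotypes was 1.70 ± 0.51 (SE, adjusted p = 0.169). Lama5 was at 64.5, 94.8 and 56.9 CPM in the flox vehicle mice, 69.5, 83.7 and 47.7 in the KO vehicle mice, 42.5, 46.0 and 16.8 in the flox MTX mice and 47.4, 30.8 and 51.3 in the KO MTX mice. The lowest value was that of flox MTX replicate 4, and the call was lost without that library and without flox vehicle replicate 1 or 3.

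Lama2, the α chain of muscle and nerve laminin that binds dystroglycan, was the only laminin chain called higher in KO than in flox mice under vehicle. It stood at 32.6, 23.1 and 40.0 CPM in the flox vehicle mice, 53.0, 59.4 and 67.0 in the KO vehicle mice, 41.4, 33.3 and 30.6 in the flox MTX mice and 55.8, 73.5 and 55.5 in the KO MTX mice. All 6 KO mice were above all 6 flox mice, and the differences were 0.91 ± 0.21 (SE, adjusted p = 0.0083) under vehicle and 0.81 ± 0.21 (SE, adjusted p = 0.104) under MTX. Per 100 fibroblast marker counts Lama2 was instead lower in KO vehicle mice, 1.62 to 1.89 against 2.95 to 3.23 in flox vehicle mice.

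Lama4, the α chain of adipocyte and endothelial laminin, was the α chain of highest level per kilobase, at 221, 91.9 and 179 CPM in the flox vehicle mice, 148, 136 and 126 in the KO vehicle mice, 193, 164 and 232 in the flox MTX mice and 127, 109 and 143 in the KO MTX mice. KO MTX mice were all below flox MTX mice, -0.64 ± 0.27 (SE, adjusted p = 0.18), and the vehicle groups overlapped, -0.26 ± 0.27 (SE, adjusted p = 0.493). Lamc1, the γ1 chain of most laminins, was at 269.9, 226 and 321 CPM in the flox vehicle mice, 318, 302 and 307 in the KO vehicle mice, 344, 242 and 398 in the flox MTX mice and 320.4, 348 and 359 in the KO MTX mice, with KO to flox differences of 0.18 ± 0.19 (SE, adjusted p = 0.511) under vehicle and 0.06 ± 0.19 (SE, adjusted p = 0.869) under MTX. Lamb2 (β2 chain of vascular and synaptic laminins) was at 187, 138 and 163 CPM in the flox vehicle mice, 193, 222 and 178 in the KO vehicle mice, 154, 165 and 201 in the flox MTX mice and 135, 149 and 170.2 in the KO MTX mice. In KO mice all its MTX values were below all its vehicle values, -0.38 ± 0.17 (SE, adjusted p = 0.596). Lamb1 ranged over 101 to 189 CPM, Lamb3, the β chain of laminin-332, over 7.15 to 23.9 CPM, and Lamc3 over 5.83 to 36.2 CPM, with the highest value in flox MTX replicate 2. Fitted log2 differences of these 5 β and γ chains between KO and flox lay between -0.34 and 0.28 under vehicle.

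**Figure D5:**
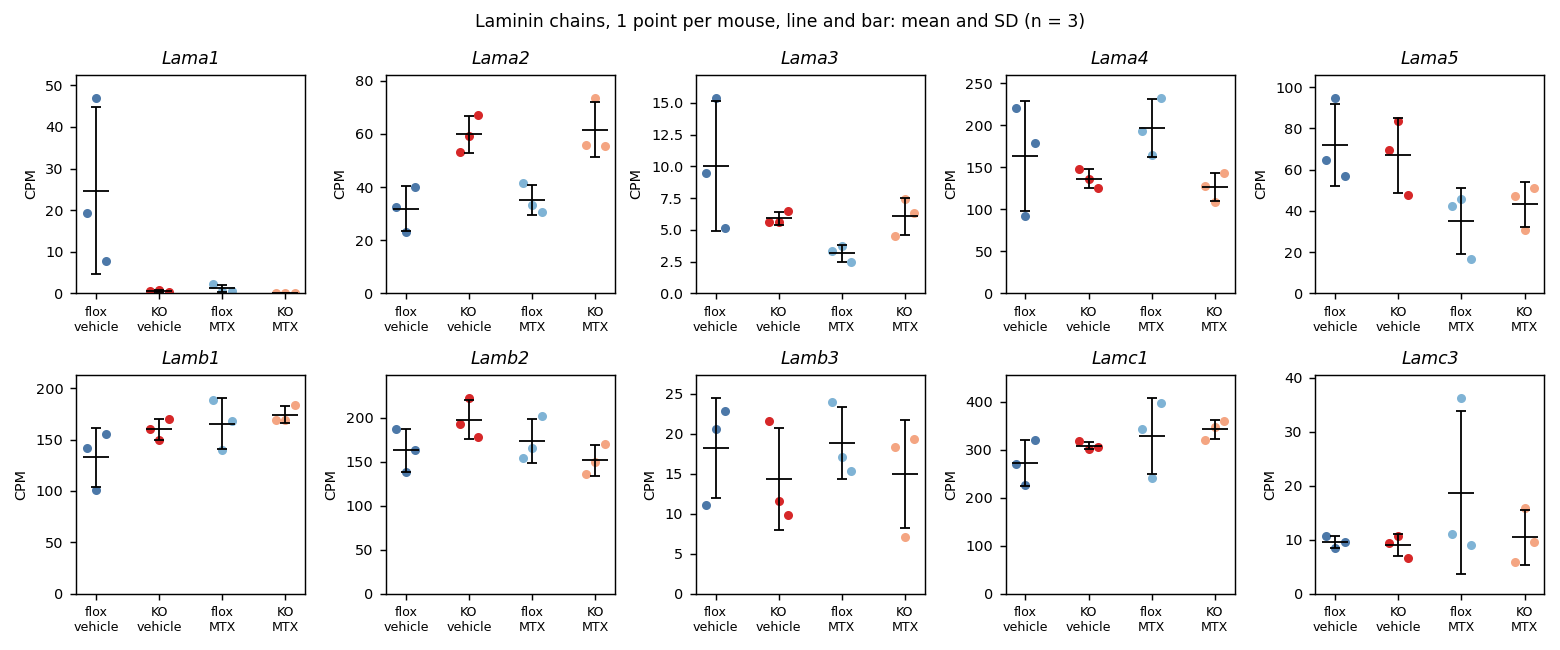
CPM of the 10 laminin chains in each mouse (points), with the group mean and SD (bars, n = 3). Lama1 is highest in the flox vehicle mice, Lama2 is higher in the KO than in the flox mice under both treatments, and Lamb1, Lamb2 and Lamc1 vary little between groups.

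Genes that act with integrins were read from 2 further lists. The calls in these lists were not followed in the alternatives, so their dependence on single libraries was not tested. Of 33 tested integrin adaptors and counter-receptors, 13 were higher and 4 lower in KO than in flox mice under vehicle (median log2 fold change 0.49), against 13.9% and 17.8% of all genes. The largest increases were those of Fermt3 (kindlin-3, which activates integrins in blood cells), 2.56 ± 0.50 (SE, adjusted p = 0.00483), of Cd9, a tetraspanin, 2.45 ± 0.43 (SE, adjusted p = 0.0037), and of Apbb1ip (RIAM, which brings talin to integrins), 2.36 ± 0.41 (SE, adjusted p = 0.00349). Lower were Cdh1, named above, Vcl (vinculin), -1.01 ± 0.25 (SE, adjusted p = 0.012), and Src, -0.99 ± 0.22 (SE, adjusted p = 0.00689), beside Tln2. MTX in flox mice raised 7 and lowered 3 of them, against 8.09% and 16.1% of all genes, with Fermt3 at 1.51 ± 0.49 (SE, adjusted p = 0.0522) and Apbb1ip at 1.48 ± 0.40 (SE, adjusted p = 0.0265), and Vcam1, the ligand of α4β1, at 1.31 ± 0.41 (SE, adjusted p = 0.0465). The fall was largest for Fermt1 (kindlin-1 of epithelium), -6.50 ± 1.25 (SE, adjusted p = 0.0105), and Cdh1, -4.97 ± 1.22 (SE, adjusted p = 0.0191). All 7 epithelium markers were called lower with MTX in flox mice too (median log2 fold change -4.46). The part of that tissue in the 2 falls was not tested. None of the 33 was called between genotypes under MTX or with MTX in KO mice, where 15 and 3 had an unadjusted p below 0.05 (24.5% and 7.97% of all genes).

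Of 30 basement membrane partners and matrix ligands of integrins, 13 were higher and 1 lower in KO than in flox mice under vehicle (median 0.55), set against the same 13.9% and 17.8%. Spp1 (osteopontin, a ligand of αv and α4 integrins) differed by 2.67 ± 1.01 (SE, adjusted p = 0.0687), Postn (periostin) by 2.10 ± 0.39 (SE, adjusted p = 0.00413) and Fbln1 (fibulin-1) by 1.94 ± 0.44 (SE, adjusted p = 0.00822), while Agrn (agrin, of the basement membrane) was lower, at a log2 difference of -0.59 ± 0.21 (SE, adjusted p = 0.0525). In flox mice MTX raised 7 of the 30, among them Fbln1, 2.00 ± 0.44 (SE, adjusted p = 0.0131), Fbln2, 1.32 ± 0.29 (SE, adjusted p = 0.0123), and Smoc2, 1.21 ± 0.29 (SE, adjusted p = 0.0183), and lowered 3, Npnt (nephronectin), Ltbp1 and Agrn (all genes, 8.09% and 16.1%). None was called between genotypes under MTX or with MTX in KO mice, with 9 and 2 at an unadjusted p below 0.05 (all genes, 24.5% and 7.97%).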

How the data were processed

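RNA of white adipose tissue from 12 mice was measured, 1 library per mouse. Per the labels and the methods, the authors trimmed reads with Trimmomatic 0.36, aligned them with STAR 2.5.2b to GRCm38 and counted them per gene with featureCounts (Subread 1.5.2, Ensembl release 79), and they deposited raw counts. The labels give polyA RNA and the methods ribosomal depletion, and the strand setting and the treatment of multi-mapped reads are not given in the sources used here. Totals were 19495310 to 23976469 counts per library.

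The deposited counts were fitted with edgeR 4.0.16 (R 4.3.3, limma 3.58.1): TMM factors, filterByExpr (18702 genes kept), a quasi-likelihood model of the 4 groups with 8 residual degrees of freedom, and Benjamini-Hochberg adjustment over all genes tested. CPM of members were computed from the deposited counts with TMM factors, and CPM per kilobase with the exon length of GENCODE M21. Sums of markers were computed without TMM factors. The SE is the log2 fold change divided by the root of F. The fitting code was tested on simulated data. Every library entered its labelled group. No 2 libraries of a group agreed within sampling noise (chi-square per degree of freedom 14.1 or more). The methods give male, age-matched mice and cage-matched littermates, but not which of these samples shared a litter or cage. An exact permutation test of 3 against 3 cannot go below p = 0.1 and was not used.

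The members, gene lists, tests and marker lists were chosen with earlier results of these data known. Every library's value is given for each member called in at least 1 comparison and for the member of highest level per kilobase in each role group, the other members by range, and of the 2 further lists at most 3 called genes in each direction. Itgad, Cdh1, Gp9, Pf4, Tln2, Crisp1, Gpx5, Lcn8, Lcn9, Rnase10 and Cst11 are named in addition, chosen after their values were seen. Alternatives were DESeq2 1.42.0, other scalings, no filter on low counts, the replicate number as a block, each comparison fitted alone and each library left out in turn.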

Additional observations from a re-analysis of the deposited data

How the results depend on the processing

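The counts of members called moved with the processing as follows. Between KO and flox mice under vehicle, 12 to 17 members were called when each library was left out in turn, and 3 without flox vehicle replicates 1 and 3, an alternative chosen after the data were seen. Between KO and flox mice under MTX, where edgeR called 0, DESeq2 called 8, the fit with no filter on low counts 4, and leaving out each library 0 to 13. The highest count came without flox MTX replicate 2. Leaving out flox vehicle replicate 3 gave 5, and flox MTX replicate 1 gave 2. For MTX against vehicle in flox mice, the count of 16 became 8 with the replicate block, 3 in the 6 libraries alone, 1 without flox vehicle replicates 1 and 3, and 4 to 18 when each library was left out. For MTX against vehicle in KO mice DESeq2 called 1 member, and for the interaction 2, with 0 to 2 when each library was left out, the 2 being Itga2b and Lama3 without flox vehicle replicate 4. Scaling by library size alone moved the median log2 fold change of all genes from -0.05 to 0.12 between KO and flox mice under MTX, from 0.05 to -0.15 for MTX in flox mice and from -0.05 to 0.13 in the interaction, and it gave 11 calls for MTX in flox mice. The share of all genes called in each alternative is not given here, so these counts do not set the members apart from all genes. The causes of these changes were not tested.

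Among the single calls of the report, Itga5 and Lama1 between KO and flox mice under vehicle passed in every alternative run, and no call changed direction. Itgb6, which passed the filter on low counts through the flox vehicle group alone, is left out of this statement. For Lama1 the alternatives are of limited use, since each kept at least 1 flox vehicle library. The epithelium markers summed to 273 to 1241 CPM in those libraries and to 5.84 to 62.5 CPM elsewhere. The part of that tissue in the call of Lama1 was not tested. Same-numbered mice of different groups did not deviate together (median correlation of residuals 0.04 over 12 pairs, -0.27 to 0.25, against 0.01 over 42 other pairs), so the numbers were not taken to pair the mice. Itga2 and Itga8 rest on few counts, and the effect of depth on their tests was not tested.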

Other observations

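The 2 members with the seed complement TGAATGT present at 2 places, Itga1 and Itgb8, stood at 15.6, 15.4 and 29.5 CPM and at 1.82, 1.77 and 2.03 CPM in flox vehicle mice, and at 24.1, 26.1 and 16.8 CPM and 0.806, 1.19 and 1.03 CPM in KO vehicle mice. Of the 7 members with the letters, 2 were called higher and 1 lower in KO than in flox mice under vehicle, with a median log2 fold change of 0.15. Of the 29 members without them, 8 were called higher and 3 lower, with a median of 0.28.

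The gene 4931431B13Rik, which overlaps Itgad on the opposite strand, had 13, 17 and 2 counts in flox vehicle, 49, 36 and 51 in KO vehicle, 9, 5 and 0 in flox MTX and 41, 30 and 47 in KO MTX mice. Like Itgad, it was above its flox values in all KO mice under vehicle.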
